A study of Danio rerio with 2 samples.

Results

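The nuclear genes for the mitochondrial ribosome, for import of proteins into mitochondria and for protein folding and quality control there were followed in 2 pigment cell preparations from adult zebrafish fins. They were taken as the probe sets whose only platform gene symbol begins with mrpl, mrps, timm or tomm and a digit, or with hspd1, hspe1, tufm, tsfm or phb. This rule used no measured value and found 84 genes with 95 probe sets, of 8793 named genes with 10795 probe sets on the array. In a current zebrafish annotation (RefSeq, GRCz12tu) 107 protein-coding genes have such a symbol, and 84 of them had a probe set here. These were 38 of 47 for the large ribosomal subunit, 21 of 28 for the small one, 8 of 10 for the outer membrane, 10 of 15 for the inner membrane, and all 5 folding and prohibitin genes and both elongation factors.

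Total RNA was hybridised to 2 Affymetrix arrays, 1 for each preparation. Both preparations came from the caudal and anal fins of wild-type pet shop fish over 2 months old. Fins of 1000 fish were digested with trypsin and then collagenase, so each array reports a pool, and cells were separated by centrifugation or a cell sorter. The sample titled melanophores (black cells) is called a xanthophore (yellow cell) sample in its source name and cell type, and the other the reverse. The array titled melanophores is therefore called M here and the one titled xanthophores X, without deciding which label is right, and each ratio is M over X. With 1 array a group there was no replicate and no test was possible, and every difference below is one between these 2 arrays.

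Most xanthophore markers went against the titles. Of 12 xanthophore marker probe sets that passed the filter on dim signals, 7 were at least 2-fold brighter on M and none on X as deposited. The largest ratios were those of bco1 (3076.2 on M and 95.2 on X) and of a probe set of scarb1 (2206.6 on M and 98.2 on X). Both probe sets of slc2a15b were brighter on X (3444.2 on M and 4348.7 on X, and 79.6 on M and 133.2 on X). With spike-ins set equal the second was 2.05-fold brighter on X. Of 11 melanophore markers 4 had a probe set and 3 passed, of which 1 went 2-fold or more towards X: the melanin enzyme gene dct read 50.1 on M and 590.1 on X, while tyr read 48.4 on M and 39.2 on X and kita 90.4 on M and 97.8 on X. Markers of other cells differed as well: all 8 connective tissue and bone probe sets and 2 of 3 erythrocyte ones that passed were at least 2-fold brighter on X, and all 3 endothelial ones and 3 of 6 keratinocyte ones on M. Their part in the results below was not tested. In pooled cells, fewer cells of a type and less RNA per cell cannot be told apart. M was also the brighter array, with a median log2 ratio of 0.38 over 18 spike-in controls and of 0.34 over all named probe sets that passed.

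Mitochondria keep a small genome whose protein-coding genes specify core membrane subunits of the respiratory chain and the ATP synthase, and a dedicated ribosome in the matrix translates them. All proteins of that ribosome, and almost all other mitochondrial proteins, are encoded in the nucleus, made in the cytosol and brought in through the TOM complex of the outer membrane and the TIM complexes of the inner one. Inside, the chaperonin made of hspd1 and hspe1 folds them, and ring-shaped prohibitin complexes organise the inner membrane. In zebrafish a mutation of hspd1 is known to block fin regeneration.

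The measured transcripts of this machinery were close to equal on both arrays as deposited. A probe set was counted as measured when its signal reached the median of the array's transcript probe sets on at least 1 array (47.2 on M and 43.5 on X), and a signal under that median was raised to it before the ratio. Of the 95 member probe sets 68 passed, for 63 genes. The inner membrane import gene timm17a alone was 2-fold or more brighter on M, and the ribosomal protein gene mrpl38 alone on X, that is, 1 of 68 in each direction. These counts depend on the setting. With spike-ins set equal 0 members were 2-fold brighter on M and 2 on X, beside 7.70% and 6.87% of all named probe sets. Without a floor 4 were on M (mrpl17, mrpl36, mrps11 and timm17a) and 1 on X, beside 17.4% and 6.40%. With cytosolic ribosomal proteins set equal 15 were on M and 0 on X, beside 44.9% and 2.01%. With bright probe sets set equal 0 were on M and 7 on X, beside 4.35% and 11.5%. Among all 6232 named probe sets that passed, 15.0% were 2-fold or more brighter on M and 4.12% on X as deposited. In either direction this was 2.94% of the members and 19.1% of all named probe sets. Most members were dim, that is, they reached no array's 75th percentile. None of the 52 dim members was 2-fold apart, beside 10.8% of all dim named probe sets, and 12.5% of the 16 bright members (2 probe sets) were, beside 26.9% of all bright named ones.

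The members' log2 ratios had an SD of 0.42, and those of all named probe sets 0.79. Among dim probe sets the SD was 0.38 for 52 members and 0.58 for all named ones. Among bright ones it was 0.53 for 16 members and 0.95 for all named ones. The members' ratios were the narrower in both classes, and also with no floor, where the SDs were 0.55 and 0.94.

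Different probe sets for the same gene, the measure of error these data allow, disagreed with an SD of 0.46 on the same scale (598 genes), a factor of 1.38. It covers probe sets only and leaves out biological and preparation spread. The factor was 1.30 among bright probe sets, 1.32 among dim ones and 1.16 over the 4 member genes with several measured probe sets. Below, a member ratio under 1.38-fold is said to be within probe set error. This limit is 1 SD, taken around equal signals, so a ratio past it can still come from probe set error. The members' own SD of 0.42 is no larger than 0.46, so passing the limit does not single a member out. At 1.5-fold 9 members were brighter on M and 3 on X, together 17.6% of the members, beside 43.2% of all named probe sets.

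**Figure D1:**
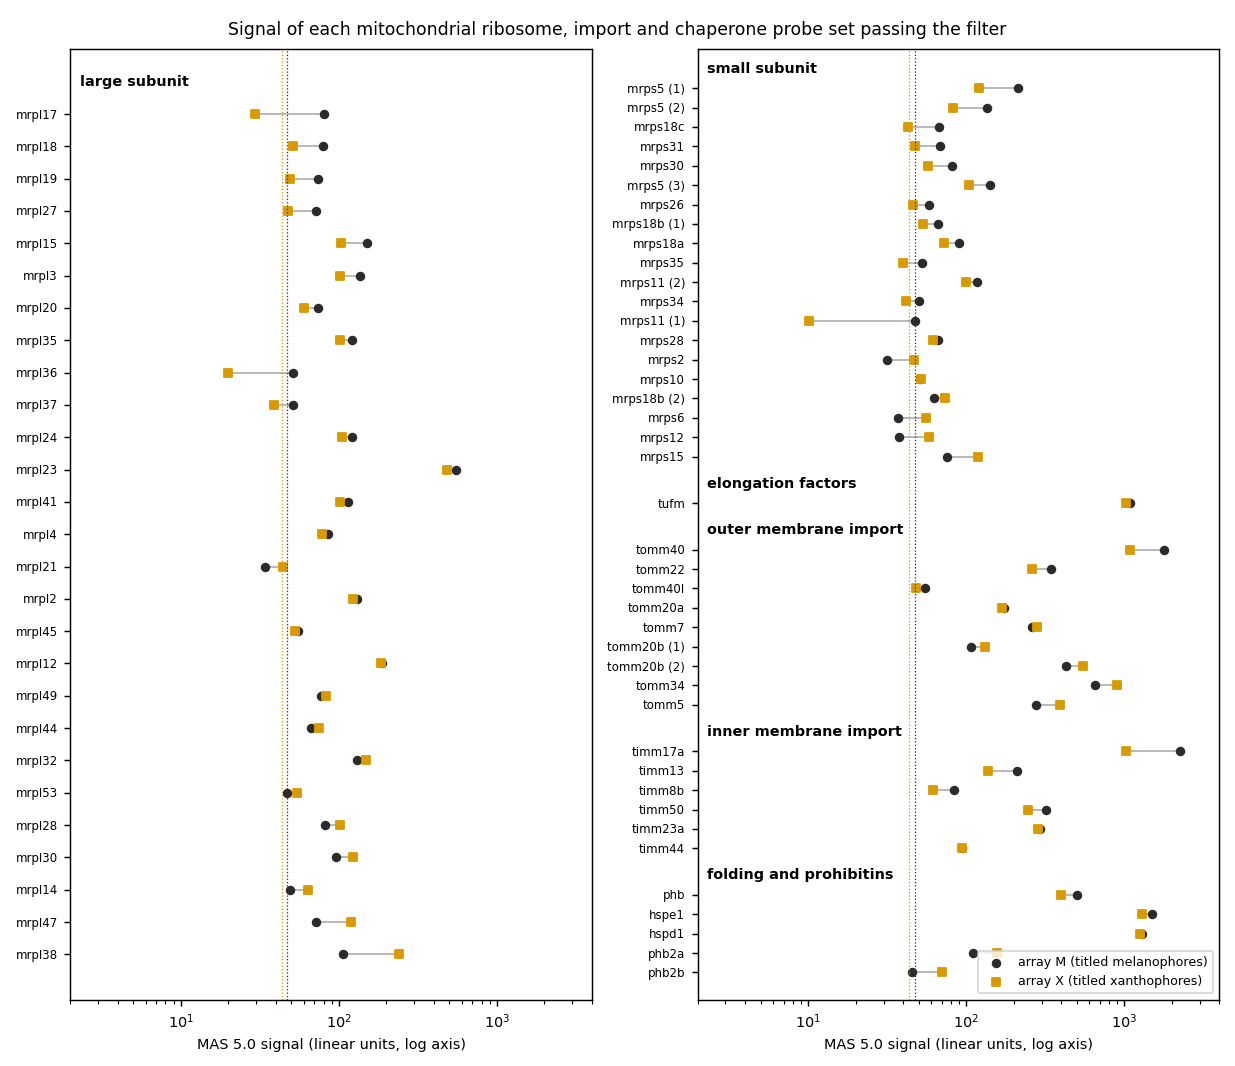
MAS 5.0 signal (log axis) of the 68 member probe sets that passed the filter, on array M (titled melanophores, black circles) and array X (titled xanthophores, yellow squares), by role and sorted by log2 ratio; dotted lines mark each array's median, and numbers in brackets tell probe sets of a gene apart. Most pairs lie close together, and timm17a (2245.6 on M and 1020.5 on X) and mrpl38 (106.4 on M and 241.9 on X) are the pairs 2-fold or more apart once signals under the median are raised to it.

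The members' median log2 ratio was 0.14 and that of all named probe sets 0.34, a difference of -0.20. The arrays were also scaled to equal spike-in medians, by the ratio of these medians (1.23), a smaller correction than the spike-ins' median log2 ratio of 0.38. With that scaling the 2 medians were -0.16 and 0.05, so the sign of the members' own median depends on the scaling. Positions below are therefore also given relative to the median of all named probe sets, which a common factor does not move. By that measure 50 of the 68 members lay below it and 18 above. Under a 65th percentile floor, which ties many ratios, 26 lay below and 10 above, and without a filter 32 lay below and 36 above. This reference is not matched for brightness. Among dim probe sets the median was 0.17 for members and 0.26 for all named ones. Among bright ones it was 0.07 for members and 0.44 for all named ones.

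Of the measured members 55 reached the median on both arrays and have a ratio, 37 of them brighter on M and 18 on X as deposited. Among all named probe sets 3885 of 5314 such ratios were brighter on M and 1426 on X. Most ratios across the arrays thus lean to M, and the counts by role below are read beside that. The other 13 measured members passed through 1 array only. For most of these the ratio is a bound, while mrpl21 (34.2 on M and 44.3 on X) and mrps2 (31.4 on M and 46.7 on X) allow no fold, because the floor of M exceeds their signal on X. The 27 members under the filter had signals of 0.7 to 45.9 on M and 2.8 to 40.2 on X. They were 13 probe sets of the large and 9 of the small subunit, tsfm, and the inner membrane genes timm8a, timm9, timm21 and timm29. A low signal can come from the probe set as well as from the transcript, so these genes are not shown to be silent.

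**Figure D2:**
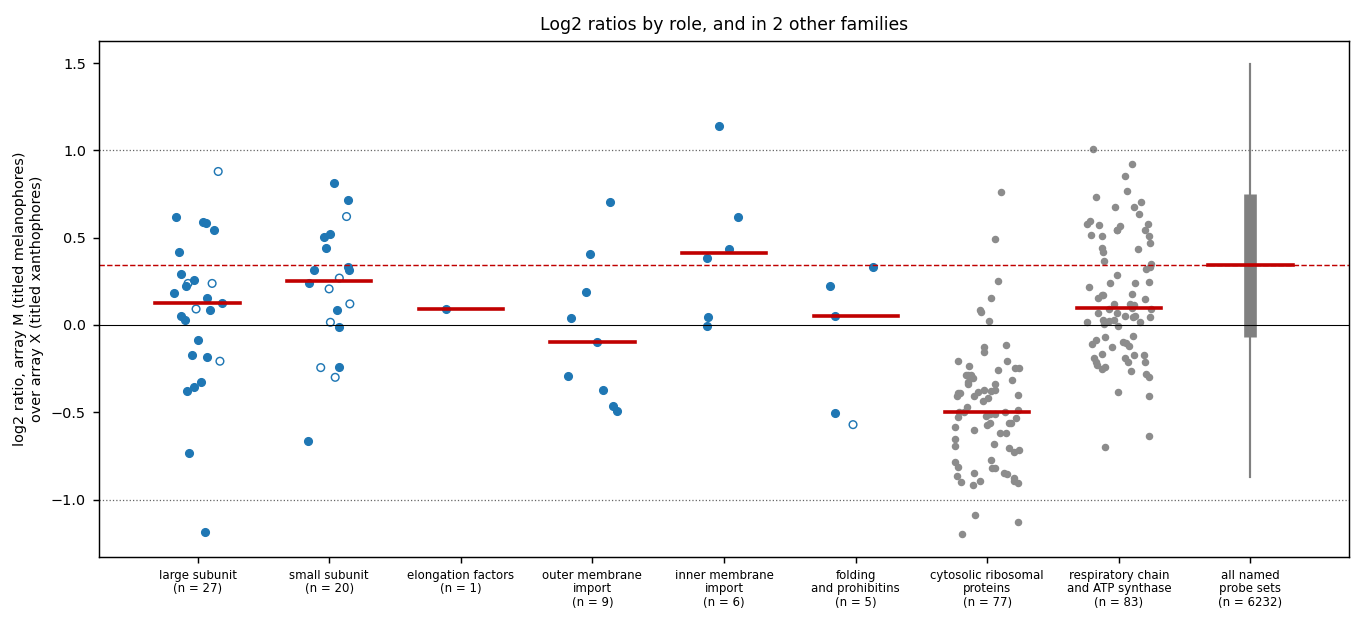
Log2 ratio, M (titled melanophores) over X (titled xanthophores), of each measured member by role (blue; open circles have a signal under the floor), of 2 other families (grey points) and of all named probe sets (grey bar, 25th to 75th percentile; line, 5th to 95th). Red bars are medians, the dashed line is the median of all named probe sets (0.34) and dotted lines mark 2-fold; as deposited, the outer membrane median (-0.10) and the cytosolic ribosomal protein median (-0.50) are below zero.

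The large subunit of the mitochondrial ribosome joins the amino acids. Its 27 measured members had signals of 34.2 to 550.7 (median 80.0) on M and 20.0 to 485.0 (median 82.4) on X. Their median log2 ratio was 0.13, or -0.21 relative to all named probe sets. The members went both ways: of the 22 with a ratio, 14 were brighter on M and 8 on X as deposited.

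Of all members with both signals above the medians, mrpl38 stood farthest from equality. It read 106.4 on M and 241.9 on X, 2.27-fold higher on X, or 2.79-fold with the spike-ins set equal. Of the alternatives run, setting cytosolic ribosomal proteins equal was the one that took it under 2-fold (log2 ratio -0.61). Within the large subunit the next in that direction was mrpl47, with 71.5 on M and 119.0 on X (1.66-fold). It was followed by mrpl14 (49.3 on M and 64.1 on X) and mrpl30 (95.8 on M and 122.6 on X), both within probe set error as deposited. With the spike-ins set equal mrpl47 was 2.04-fold, mrpl14 1.60-fold and mrpl30 1.57-fold higher on X, all past it.

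At the other end of the large subunit, mrpl17 read 80.0 on M and 29.3 on X, where the second value is under the floor, so that it was at least 1.84-fold brighter on M. Its log2 ratio was 1.45 under a 25th percentile floor and 0.33 under a 65th percentile floor. The genes after it were dim and exceeded probe set error as deposited, but not with the spike-ins set equal (1.25-, 1.22-, 1.22- and 1.19-fold, in the order below). They were mrpl18 (79.2 on M and 51.6 on X, log2 ratio 0.62), mrpl19 (74.1 on M and 49.3 on X, 0.59), mrpl27 (71.3 on M and 47.6 on X, 0.58) and mrpl15 (151.1 on M and 103.5 on X, 0.55). The brightest probe set of the subunit, for mrpl23, was nearly level (550.7 on M and 485.0 on X, 1.14-fold). So was that for mrpl12 (188.5 on M and 185.0 on X), which codes for the stalk protein where translation factors dock.

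The small subunit decodes the messenger RNA. Its 20 measured probe sets, for 16 genes, read 31.4 to 211.6 (median 66.2) on M and 10.2 to 120.5 (median 56.7) on X, and none reached the 75th percentile of an array. Their median log2 ratio was 0.25, and 10 of the 13 with a ratio were brighter on M as deposited. Relative to all named probe sets it stood at -0.09, but at 0.04 after quantile normalization or with a lowess trend on brightness removed. The median of all dim named probe sets was 0.26 as deposited. The grouping follows the symbols, and in mammals the products of mrps18a and mrps30 are found in the large subunit.

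The gene mrps5, whose product lines the messenger RNA entry, had 3 measured probe sets that pointed the same way as deposited. They read 211.6, 136.0 and 141.9 on M and 120.5, 82.9 and 104.4 on X, for 1.76-fold, 1.64-fold and 1.36-fold. With the spike-ins set equal all 3 stayed brighter on M, at 1.43-, 1.34- and 1.11-fold, and only the first was past probe set error. The last of these, of the type open to cross-hybridisation, turned to a log2 ratio of -0.11 with bright probe sets set equal. In the other direction mrps15 read 75.1 on M and 119.1 on X (1.59-fold, or 1.95-fold with the spike-ins set equal). Its second probe set (34.2 on M and 26.6 on X) was under the filter.

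The mrps18 paralogs were all dim. The probe set of mrps18a read 90.6 on M and 72.9 on X, and that of mrps18c 66.9 on M and 42.9 on X, where the value on X is under the floor. The probe sets of mrps18b pointed opposite ways, at 66.5 on M and 53.5 on X for the one, and 62.6 on M and 73.9 on X for the other. The first, of a type open to cross-hybridisation, was 1.24-fold and the second 1.18-fold, both within probe set error. With the spike-ins set equal the first was 1.01-fold brighter on M and the second 1.45-fold brighter on X. Of the 10 member genes with more than 1 probe set, 4 had more than 1 measured. As deposited mrps18b was the gene among these 4 whose measured probe sets differed in direction.

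The remaining genes with several probe sets show what a signal can and cannot tell. The probe sets of tomm20b agreed within 0.08 in log2 ratio although their signals differed 3.94-fold on M. For mrps11 one read 117.9 on M and 99.9 on X (1.18-fold) and the other 47.3 on M and 10.2 on X, which gives a bound of at least 1.09-fold. For mrps35 (52.4 on M and 40.1 on X, and 3.4 on M and 3.0 on X) the signals differed 15.4-fold on M. Signals of different probe sets therefore do not rank these transcripts by amount. A single measured probe set remained for mrpl19, mrps15 and mrps35, for mrpl28 (81.2 on M and 102.0 on X) and for mrps31 (68.2 on M and 47.5 on X), and none for mrps7 (26.9 on M and 20.4 on X, and 2.3 on M and 21.2 on X).

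**Figure D3:**
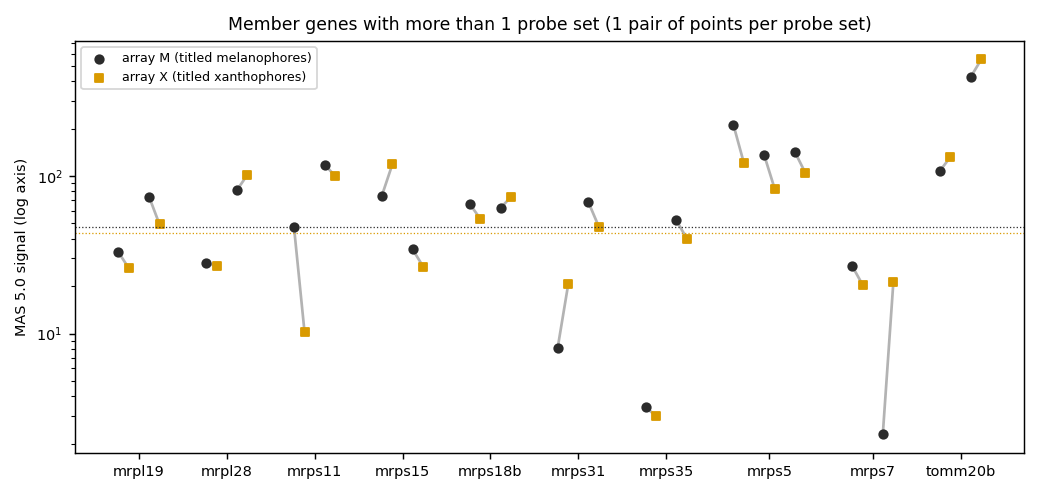
MAS 5.0 signal (log axis) of every probe set of the 10 member genes that have more than 1, array M (titled melanophores, black circle) left of array X (titled xanthophores, yellow square); dotted lines mark each array's median. Probe sets of mrps35 or mrps11 lie far apart in signal, while the 3 of mrps5 and the pair of tomm20b tilt the same way.

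Of the elongation factors, tufm, which delivers aminoacyl-tRNA to the mitochondrial ribosome, read 1084.2 on M and 1019.4 on X (1.06-fold). Its exchange factor tsfm was under the filter on both (7.7 on M and 11.4 on X).

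The outer membrane import genes had the lowest median of the roles. All 9 probe sets passed, with signals of 54.8 to 1780.7 on M and 48.1 to 1093.2 on X. Their median log2 ratio was -0.10 as deposited, or -0.44 relative to all named probe sets, and in all 12 alternatives at 2-fold it lay below that of all named probe sets. The pore gene tomm40 (1780.7 on M and 1093.2 on X, 1.63-fold) and the central receptor tomm22 (345.2 on M and 260.1 on X, 1.33-fold) were brighter on M as deposited, and 7 of the 9 probe sets lay below the median of all named ones. With the spike-ins set equal tomm40 was 1.33-fold brighter on M, within probe set error. The pore paralog tomm40l was nearly level (54.8 on M and 48.1 on X).

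The presequence receptor has a pair of zebrafish paralogs. The probe set of tomm20a was level (172.9 on M and 168.4 on X), while both for tomm20b were brighter on X, at 425.5 on M and 550.1 on X (1.29-fold) and at 108.0 on M and 132.3 on X (1.23-fold). The small subunits of the complex were tomm5 (277.5 on M and 389.7 on X, 1.40-fold) and tomm7 (261.9 on M and 280.5 on X, 1.07-fold), and the cytosolic cochaperone tomm34 read 652.5 on M and 899.7 on X (1.38-fold). Of these, tomm20b, tomm5, tomm7 and tomm34 had their higher signal on X as deposited, where only tomm5 and, narrowly, tomm34 went past probe set error. With the spike-ins set equal both probe sets of tomm20b, tomm5 and tomm34 were past it, while tomm7 and tomm20a stayed within it.

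The inner membrane import genes had a median log2 ratio of 0.41, the highest of the roles as deposited, or 0.07 relative to all named probe sets (-0.05 under a 75th percentile filter, which left 3). After quantile normalization the small subunit was the higher, at 0.04 beside 0.03 for the inner membrane genes, as it was with the lowess trend removed. Their 6 measured members read 83.6 to 2245.6 on M and 61.8 to 1020.5 on X, and 5 of the 6 were brighter on M as deposited, against 2 of 6 with bright probe sets set equal, where the median was -0.14. The presequence translocase subunit timm17a read 2245.6 on M and 1020.5 on X, 2.20-fold. With spike-ins set equal it was 1.79-fold. Its log2 ratio stayed positive in the alternatives run, from 0.58 (bright probe sets equal) to 1.72 (cytosolic ribosomal proteins equal).

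The partners of timm17a in the same translocase had smaller ratios. The channel subunit timm23a read 295.2 on M and 286.4 on X (1.03-fold), and the receptor timm50 319.6 on M and 244.6 on X (1.31-fold). The gene timm44, whose product ties the import motor to the channel, read 94.0 on M and 94.3 on X. The chaperones of the intermembrane space lay between, with timm13 at 210.9 on M and 137.6 on X (1.53-fold) and timm8b at 83.6 on M and 61.8 on X (1.35-fold).

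The 5 folding and prohibitin genes all lay below the median of all named probe sets as deposited, phb by only 0.01 in log2 ratio. Their own median log2 ratio was 0.05 as deposited. Without a filter the median of all named probe sets was 0.12, and hspe1 (0.22) and phb (0.33) lay above it. The chaperonin gene hspd1 read 1300.7 on M and 1257.4 on X (1.03-fold), and hspe1, which codes for its lid, 1508.6 on M and 1293.5 on X (1.17-fold). These genes are neighbours in the annotation, the only such pair among the member genes, and both were within probe set error. The prohibitins are partner subunits of the same ring. Of their genes phb read 500.5 on M and 398.0 on X (1.26-fold), while both phb2 paralogs were brighter on X, phb2a at 110.3 on M and 156.2 on X (1.42-fold) and phb2b at 45.3 on M and 70.1 on X (at least 1.49-fold, since the value on M is under the floor).

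Other genes of mitochondria were listed by function, and in 3 of 5 lists 2 probe sets were 2-fold or more apart, all of them towards M. With so few probe sets their shares are near the 15.0% of all named probe sets, so nothing is read from these counts. Of 17 such genes on the array for translation factors, ribosome assembly and ribosomal proteins with other symbols, 9 were measured; 2 reached 2-fold towards M and 0 towards X (22.2% past 2-fold, list median 0.29). The small subunit protein gene dap3 read 190.3 on M and 79.3 on X (2.40-fold, or 1.96-fold with spike-ins equal), and taco1, an activator of translation in mitochondria, 156.0 on M and 68.7 on X (2.27-fold, or 1.85-fold). The small subunit protein gene chchd1 read 71.1 on M and 46.5 on X (1.53-fold) and the elongation factor gene gfm1 70.8 on M and 102.4 on X (1.45-fold).

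Of 10 measured probe sets for other import genes, 2 were 2-fold or more brighter on M and none on X (20.0%, list median 0.47). The gene grpel1, for a nucleotide exchange factor of the import motor, read 139.3 on M and 59.0 on X (2.36-fold, or 1.92-fold with spike-ins equal). The outer membrane protein gene mtx2 read 327.6 on M and 139.8 on X (2.34-fold, or 1.91-fold), but its other probe set was level (64.9 on M and 62.2 on X). The motor chaperone gene hspa9 read 4924.0 on M and 3221.8 on X (1.53-fold), and 246.1 on M and 210.6 on X (1.17-fold) by its other probe set. On the same list romo1 read 2249.7 on M and 3625.1 on X (1.61-fold).

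None of 10 measured probe sets for mitochondrial proteases and other chaperones was 2-fold apart (list median -0.01). The genes spg7 (54.3 on M and 92.7 on X, 1.71-fold) and afg3l2 (165.8 on M and 112.3 on X, 1.48-fold), which in mammals code for subunits of the same protease, had their higher signals on opposite arrays. For the unfoldase gene clpxa one probe set read 206.8 on M and 169.8 on X. Another, of the type open to cross-hybridisation and under the floor on M, read 21.5 on M and 71.7 on X.

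None of 11 measured probe sets for channels, carriers, membrane shape and a matrix enzyme was 2-fold apart either (list median 0.09). The genes for the voltage-dependent anion channels of the outer membrane split, with vdac3 at 387.4 on M and 239.5 on X (1.62-fold), vdac1 at 628.8 on M and 954.4 on X (1.52-fold) and vdac2 at 624.1 on M and 874.2 on X (1.40-fold). The inner membrane fusion gene opa1 read 228.3 on M and 148.9 on X (1.53-fold), and 57.5 on M and 46.4 on X (1.24-fold) by its other probe set. Citrate synthase, cs, was level (572.3 on M and 508.7 on X).

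The last list held mitochondrial DNA and RNA genes and regulators of nuclear mitochondrial genes. Its DNA and RNA genes on the array (polg, polg2, ssbp1, tfam and tfb2m) were all under the filter. Of its 11 measured probe sets, all for regulators, 2 were 2-fold or more brighter on M and none on X (18.2%, list median 0.22). One of them was for yy1a (1739.5 on M and 698.6 on X, 2.49-fold, or 2.03-fold with spike-ins equal), whose other probe set read 404.5 on M and 297.7 on X (1.36-fold). The other was for nrf1 (499.1 on M and 211.0 on X, 2.37-fold, or 1.93-fold). In mammals both factors are known to act on nuclear genes for mitochondria, as is the ETS factor gabpa. It read 545.6 on M and 303.6 on X (1.80-fold, or 1.46-fold with spike-ins equal), while gabpb2a (1.13-fold) and yy1b (1.17-fold) were nearly level. The Myc paralog mycb read 1123.0 on M and 1799.4 on X (1.60-fold), and myca 42.4 on M, under the floor, and 72.2 on X. A probe set of ppargc1b was also higher on X (67.6 on M and 106.0 on X, 1.57-fold), while its other was level (50.1 on M and 48.0 on X). Over the list 8 measured probe sets were brighter on M and 3 on X as deposited, a split near that of all named probe sets. Of those 6232, 4427 were brighter on M and 1800 on X, so nothing is read from it.

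The mitochondrial ribosome was set beside the cytosolic one. The comparison families were taken by symbol, so they hold a few genes whose products are not subunits, such as rps19bp1 in the cytosolic family and ndufaf1 in the respiratory one. The 47 measured probe sets of both mitochondrial subunits had a median log2 ratio of 0.18 as deposited, and the 77 for cytosolic ribosomal proteins -0.50. Relative to all named probe sets these were -0.16 and -0.84, and with a lowess trend on brightness removed -0.09 and -0.62. The cytosolic family was far brighter, with median signals of 3977 on M and 6024 on X. Its 3 probe sets past 2-fold as deposited were all brighter on X (3.90%, beside 4.12% of all named probe sets). With spike-ins set equal 20 were 2-fold brighter on X, and after quantile normalization 16, beside 6.87% and 8.07% of all named probe sets. With bright probe sets set equal 42 were, beside 11.5%. The mitochondrial ribosome makes part of the respiratory chain and ATP synthase. Over 83 nuclear probe sets for these the median was 0.10, or -0.25 relative to all named probe sets. As deposited 1 of them was past 2-fold, ndufa12 (386.1 on M and 192.4 on X), that is, 1.20% beside 19.1% of all named probe sets. Log2 ratios had an SD of 0.35 in the cytosolic ribosome and 0.36 in the respiratory chain, beside 0.42 for the members. With 1 array each, no test of the differences between families was possible.

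**Figure D4:**
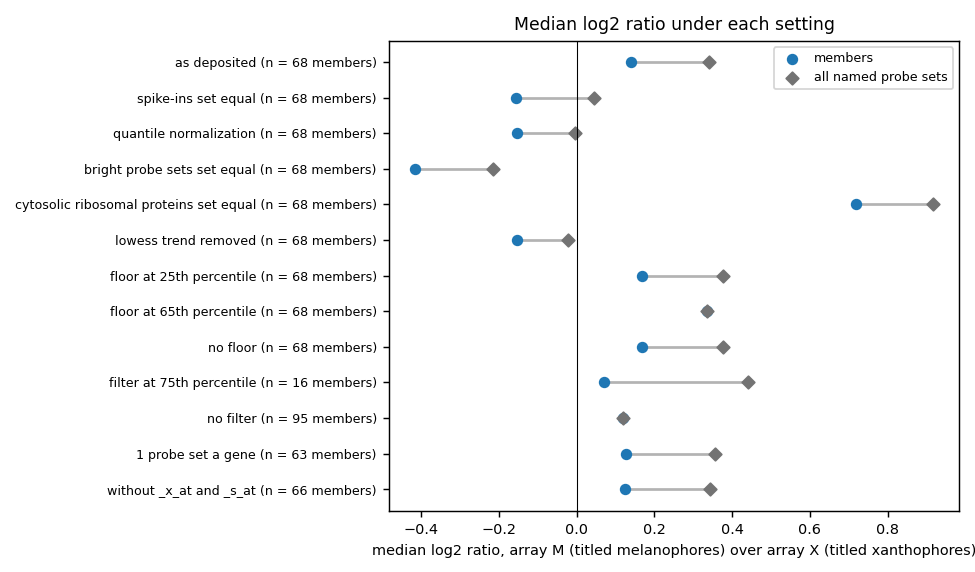
Median log2 ratio, M (titled melanophores) over X (titled xanthophores), of the members (blue circles) and of all named probe sets (grey diamonds) that pass the filter, for the deposited signals and 12 other settings. The members' median lies on both sides of zero, from -0.42 to 0.72, and differs from that of all named probe sets by -0.13 to -0.37, except under a 65th percentile floor and without a filter, where both medians are the ratio of the floors.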

How the data were processed

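The authors deposited MAS 5.0 signal intensities (linear scale, no logs) for 15617 probe sets, 115 of them controls, on 1 array per preparation. An outside service did the labelling, scanning and MAS 5.0 processing, per the labels' protocols. Neither the scaling target nor detection calls are stated in the sources used here. Intensities were used as deposited, grouped by sample title, with the floor, filter and fold given in the report. The number of arrays limits the precision. Symbols came from the supplied platform annotation; 4572 transcript probe sets have no symbol here, and 135 with several were left unnamed.

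Members, gene lists and rules were chosen with earlier results of these data known. Named members were those past 2-fold, the extremes and the brightest of each role, genes with several probe sets, all of roles with at most 8 probe sets, and up to 4 genes per other list. Further members were named after their values were seen. Sequences and promoter motifs were not analysed here. Alternatives covered scaling, floor, filter, fold and choice of probe set. The calculation was tested on simulated data with known folds (Python 3.11.15, numpy 2.4.6, pandas 2.3.3, statsmodels 0.14.6).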

Additional observations from a re-analysis of the deposited data

How the results depend on the processing

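The members' median log2 ratio (0.14) reversed to -0.16 with spike-ins set equal, -0.15 after quantile normalization, -0.15 with the lowess trend removed and -0.42 with bright probe sets set equal, and moved to 0.72 with cytosolic ribosomal proteins set equal. These settings shift all ratios, and the median of all named probe sets with them. Members brighter by 2-fold on M (1 as deposited) numbered 0 under the first 4 of these settings, 15 with ribosomal proteins set equal, and 4 with the floor at the 25th percentile or none. Of all named probe sets 4.35% to 7.70% were so under the first 4, 44.9% with ribosomal proteins set equal, and 17.4% with the lower floor or none. Members brighter by 2-fold on X (1 as deposited) numbered 2 with spike-ins equal, 3 after quantile normalization and 5 without the lowess trend. They numbered 7 with bright probe sets equal and 0 with ribosomal proteins equal. The shares of all named probe sets were 6.87%, 8.07%, 8.25%, 11.5% and 2.01%, in the same order. With bright probe sets equal the members' share was 10.3%, near that of all named probe sets. At 1.5-fold the counts were 9 on M and 3 on X, beside 34.6% and 8.68% of all named probe sets. At 4-fold they were 0 on M and 0 on X, beside 2.15% and 1.11%. The members' median minus that of all named probe sets (-0.20) ran from -0.13 to -0.37 in the alternatives run, except with the higher floor or no filter, where it was 0 because both medians are the ratio of the floors. No paired analysis was possible because each group has 1 array.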
